A study of Mus musculus with 20 samples.

Results

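The 7 genes described here are the matrix metalloproteinases Mmp2, Mmp3, Mmp9 and Mmp14 and the tissue inhibitors of metalloproteinases Timp1, Timp2 and Timp3. They were picked by gene symbol, and the rule uses no measured value. All 12 probe sets whose platform annotation names a single one of these genes were taken, out of 8251 genes so annotated on the array. Hearts of 20 male mice were measured on 1 oligonucleotide array each, with 5 mice in each of 4 groups.

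The first group was 30 months old and ate a diet with 500 mg/kg of α-tocopherol and 500 mg/kg of γ-tocopherol. Another group of 30 months ate a diet with 1000 mg/kg of α-tocopherol alone. Both supplemented groups had been on their diet since 15 months of age. The old controls were 30 months old and the young controls 5 months old, and both ate the control diet. The labels give every mouse as a B6/C3H F1 hybrid, except old controls 1 and 4, whose label lacks the F1 mark. All mice were singly housed males from 1 supplier, so the values describe 1 hybrid background and 1 sex. α- and γ-tocopherol are the main dietary forms of vitamin E, a lipid-soluble antioxidant.

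Matrix metalloproteinases are zinc-dependent enzymes that cut collagens, laminins, proteoglycans and other proteins of the extracellular matrix. They are secreted or membrane-bound enzymes that are made as inactive precursors, are activated by proteolysis, and are blocked by the TIMPs, which bind their active site. In the heart the balance of enzymes and inhibitors governs collagen turnover and the remodelling of the ventricle. Timp2 has a further role, since it links the membrane-bound enzyme Mmp14 to the precursor of Mmp2 on the cell surface and so takes part in the activation of Mmp2.

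Promoter windows are given for Timp2, the only one of the 7 genes with a called change, and for Timp1 and Mmp3, an inhibitor and an enzyme whose levels did not pass the test. Each window runs from 250 bases before to 50 bases after the RefSeq gene start in the build GRCm38.p6. Capitals mark matches to the Sp1 motif GGGCGG, on either strand, and to the AP-1 motif TGANTCA. No match of one motif overlapped a match of the other. Timp2 lies at chr11:118355362-118355661 on the minus strand, Timp1 at chrX:20869916-20870215 on the plus strand and Mmp3 at chr9:7445572-7445871 on the plus strand.
Timp2: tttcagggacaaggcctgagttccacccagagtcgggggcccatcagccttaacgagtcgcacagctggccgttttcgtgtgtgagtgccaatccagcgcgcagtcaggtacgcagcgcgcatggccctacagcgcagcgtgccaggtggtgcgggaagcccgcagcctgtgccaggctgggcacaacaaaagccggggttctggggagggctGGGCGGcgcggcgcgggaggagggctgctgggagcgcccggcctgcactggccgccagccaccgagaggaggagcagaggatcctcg
Timp1: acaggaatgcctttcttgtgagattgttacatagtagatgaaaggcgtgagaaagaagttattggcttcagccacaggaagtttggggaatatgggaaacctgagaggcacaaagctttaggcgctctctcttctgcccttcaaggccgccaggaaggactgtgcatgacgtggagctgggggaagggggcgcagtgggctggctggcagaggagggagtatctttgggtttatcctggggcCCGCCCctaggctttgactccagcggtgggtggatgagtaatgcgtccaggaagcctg
Mmp3: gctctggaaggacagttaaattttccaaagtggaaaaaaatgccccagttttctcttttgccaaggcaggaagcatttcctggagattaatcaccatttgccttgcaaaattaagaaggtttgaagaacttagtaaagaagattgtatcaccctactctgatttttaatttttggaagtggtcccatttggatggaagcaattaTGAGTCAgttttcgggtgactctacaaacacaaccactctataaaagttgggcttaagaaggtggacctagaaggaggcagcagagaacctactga
The Timp2 window held 1 Sp1 match, starting at position -37 from the gene start, and no AP-1 match, with a GC content of 68.7%. The Timp1 window also held 1 Sp1 match, at position -8. The Mmp3 window held 1 AP-1 match, at position -46, and no Sp1 match, with a GC content of 40%. Of 32851 promoter windows of this length, 35.7% held the Sp1 motif and 7.81% the AP-1 motif, and the median GC content was 52.7%. The windows of Timp3 and Mmp14 held 2 Sp1 matches each and no AP-1 match. In human cells an AP-1 site in the MMP3 promoter is known to mediate its induction by cytokines. Absence of a match says only that these letters are not in the window.

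Signals are intensities scaled by the authors, and levels and changes are on the scale of log2(intensity + 58), which understates changes of dim probe sets. A change is called when its adjusted p from limma with Benjamini-Hochberg adjustment over all 7453 tested probe sets is below 0.05. The dimmest 40% of probe sets were not tested. All 9 measured cardiomyocyte markers, among them Myh6, Actc1 and Tnnt2, passed this filter, and their summed intensity was 572175 to 798560 in the mixture group, 787555 to 963886 in the α-tocopherol group, 658939 to 787747 in old controls and 641106 to 799576 in young controls. Old control 3 stood apart in Gapdh, whose probe sets were 1.21 higher at the 3' end than at the 5' end (log2), against -0.17 to 0.19 on the other arrays. The same measure for actin did not set it apart, at 0.23 in a range of -0.07 to 0.29 over the 20 arrays. The arrays of the α-tocopherol group had higher hybridization controls than old controls, by 0.85 (log2), and more 18S ribosomal signal, by 1.66. Each of these differences had an exact two-sided permutation p = 0.0079, the smallest that 5 against 5 arrays can give, and 0.032 after adjustment over 16 tests. In the mixture group the same measures were higher than in old controls by 0.28 and 0.52, with exact permutation p = 0.16 and 0.26 and adjusted p = 0.35 and 0.47. The mixture minus α-tocopherol was -0.57 for hybridization controls and -1.14 for 18S, each with exact permutation p = 0.0079 and adjusted p = 0.032.

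Of the 12 probe sets, 5 passed the filter on dim probe sets, 1 each for Timp1, Timp2, Timp3, Mmp3 and Mmp14. Both probe sets of Mmp2 and both of Mmp9 were among the dimmest 40%, as were 1 further probe set of Timp1 and 2 of Timp2. In the mixture against old controls, 1 of the 5 was called, Timp2, which was lower, against 6.43% of all tested probe sets called and 3.76% called lower. In α-tocopherol against old controls, 1 of the 5 was called, again Timp2 and lower, against 21.7% called and 12.8% called lower. In old against young controls 0 of 5 were called by limma and 0 had an unadjusted p below 0.05, against 4.94% of all tested probe sets called. Between the mixture and α-tocopherol 0 of 5 were called and 0 had an unadjusted p below 0.05, against 0.564% called. Their median change was 0.03 for the mixture, -0.19 for α-tocopherol, -0.06 for the mixture against α-tocopherol and -0.04 for age, where all tested probe sets had medians of -0.01, -0.02, 0.01 and 0.01.

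**Figure D1:**
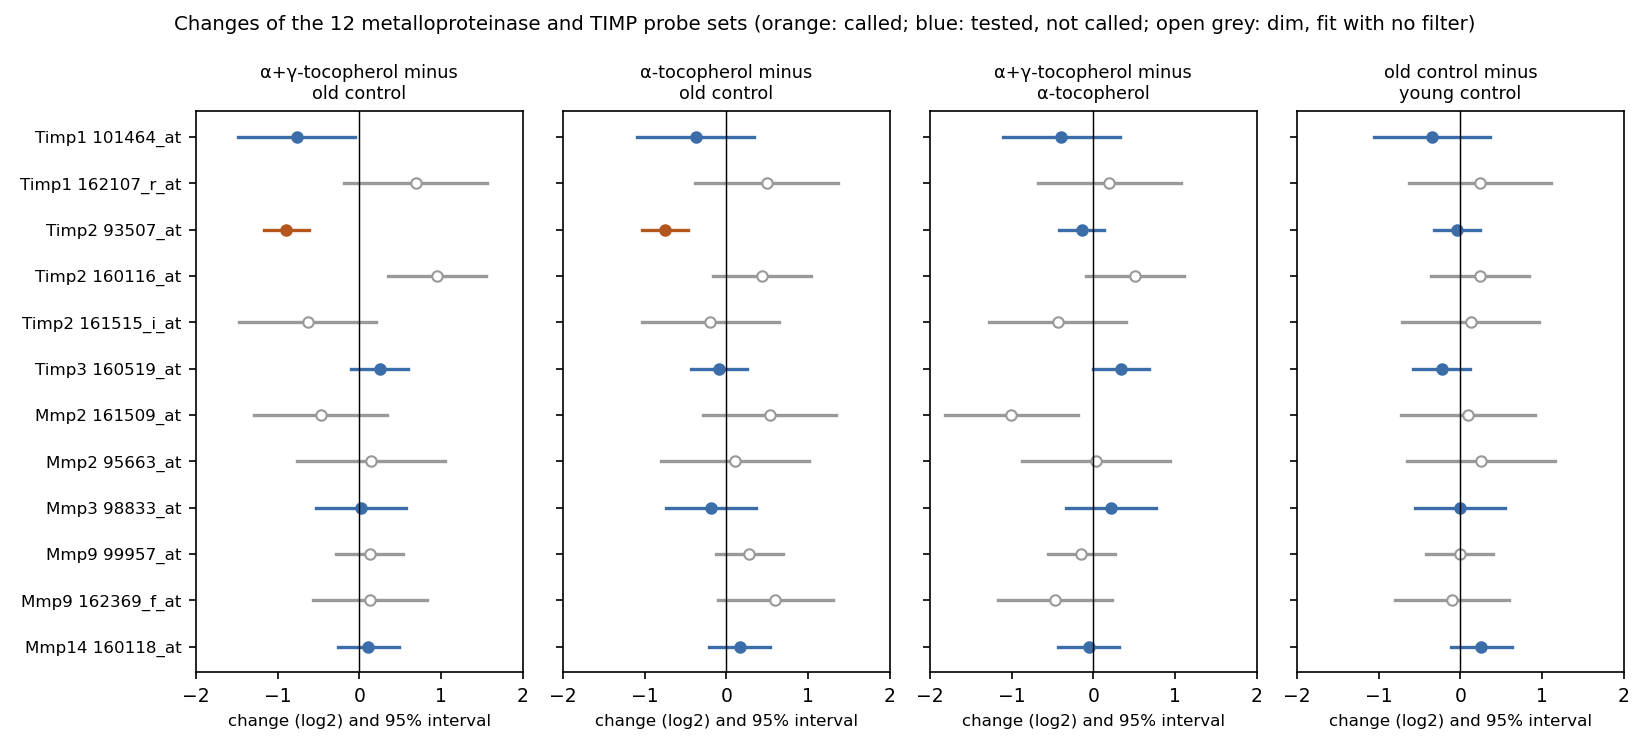
Change (log2) with its 95% interval for the 12 probe sets in each comparison, with the group named first minus the other. Filled orange points were called, filled blue points were tested and not called, and open grey points are dim probe sets from a fit with no filter. Timp2 93507_at is the filled orange point, at -0.89 for the mixture and -0.75 for α-tocopherol.

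Timp2, the inhibitor that also takes part in activating Mmp2, was lower in hearts of both supplemented groups than in old controls, at the probe set 93507_at. Its intensity was 1344.5, 1624, 1077.7, 1235.1 and 1479.9 in the mixture group. It was 1808.8, 1288.6, 1681.1, 1177.6 and 1553 in the α-tocopherol group. Old controls had 2561.1, 2585.4, 3031, 2258.4 and 2321.7, and young controls 3111, 2585.1, 2397.3, 2719.9 and 2328.8. Every supplemented heart was below every old and every young control heart. The mixture and α-tocopherol groups overlapped each other, as did old and young controls.

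The mean level of Timp2 was 10.45 ± 0.22 with the mixture, 10.59 ± 0.25 with α-tocopherol, 11.34 ± 0.16 in old controls and 11.38 ± 0.16 in young controls (log2, SD, n = 5 each). In the mixture group it was lower than in old controls by a change of -0.89 ± 0.13 (SE; 95% interval -1.17 to -0.62), which is 0.538 of the old level, with limma adjusted p = 0.00051. By p-value this was the 15th of the 7453 probe sets in that comparison. In the α-tocopherol group the change from old controls was -0.75 ± 0.13 (SE; -1.03 to -0.47), or 0.594 of the old level, with adjusted p = 0.00046, and it ranked 192nd by p-value. All 5 hearts lay below all 5 old controls for 4.94% of tested probe sets with the mixture and for 9.39% with α-tocopherol. The shares that lay below all young controls were not computed. The supplement comparisons share the old controls.

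In the order of mean levels old and young controls did not differ beyond their spread, with a change with age of -0.04 ± 0.13 and adjusted p = 0.92. The other neighbours that did not were the mixture and α-tocopherol, which differed by -0.14 ± 0.13 (mixture minus α-tocopherol; 95% interval -0.42 to 0.14; adjusted p = 0.64). The gap lay between α-tocopherol and old controls. Fewer cells of a type and less RNA per cell cannot be told apart in RNA of whole hearts, here or in the results below.

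**Figure D2:**
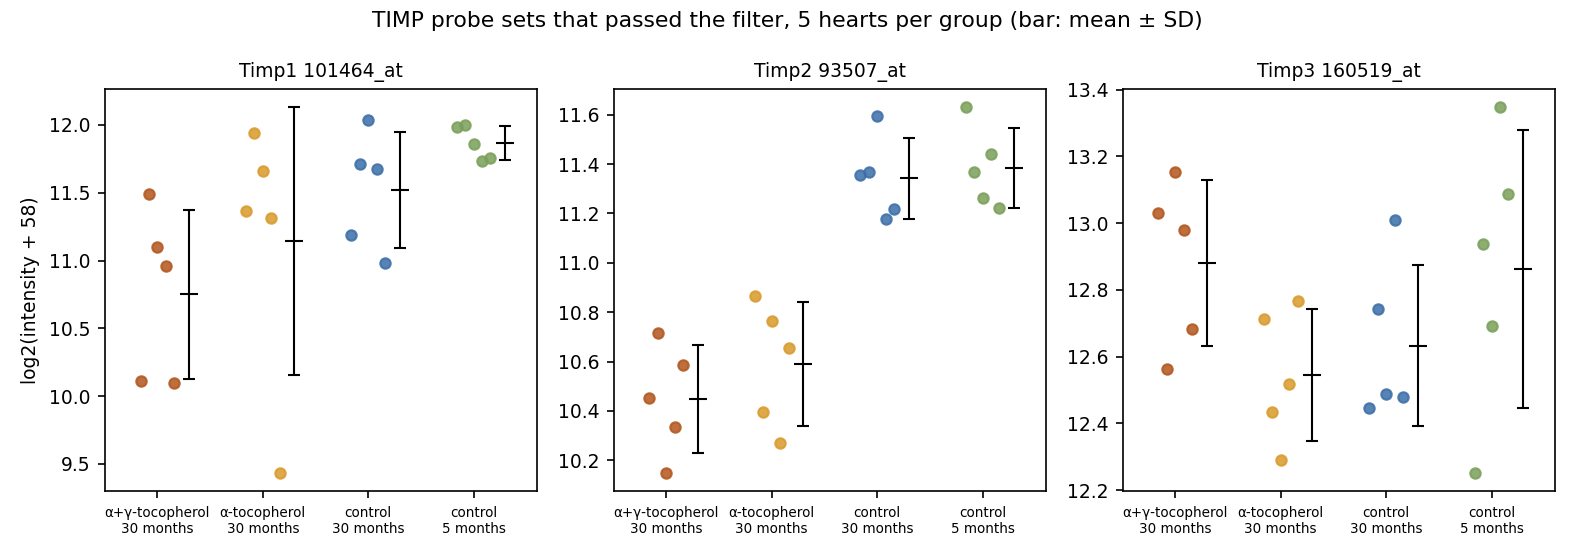
Level, as log2(intensity + 58), of the TIMP probe sets that passed the filter in each of 20 hearts, with the mean ± SD of each group of 5 as a bar. For Timp2 both supplemented groups lie below both control groups, and for Timp1 1 α-tocopherol heart lies at 634.2 in intensity.

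Hybridization control and 18S levels also differed between the α-tocopherol group and old controls. For the mixture neither difference passed the exact permutation test (adjusted p = 0.35 and 0.47). Some of the cell marker sums given below lay apart from old controls in both supplemented groups. When the level of the hybridization controls was a covariate, the α-tocopherol change was -0.79 ± 0.24 and was not called, with adjusted p = 0.081, and the mixture change was -0.91 ± 0.15 with adjusted p = 0.0027. With the 18S level as a covariate, the α-tocopherol change was -1.10 ± 0.19 (adjusted p = 0.0070) and the mixture change was -1.004 ± 0.13 (adjusted p = 0.00043). Mixture animal 5 had hybridization controls at 12.39 and 18S at 11.91, with a Timp2 intensity of 1479.9. Mixture animal 3 had hybridization controls at 13.17 and 18S at 10.76, with Timp2 at 1077.7, and mixture animal 4 had 13.15 and 9.90, with Timp2 at 1235.1. Mixture animal 2 had the highest values of its group in both, 13.32 and 11.98, and its highest Timp2, at 1624. Old controls ranged from 12.55 to 12.92 in hybridization controls and from 10.16 to 11.23 in 18S. Every mixture heart was above them in at least 1 of the measures. Young controls 4 and 5 were also above them in hybridization controls, at 13.04 and 12.93, with Timp2 at 2719.9 and 2328.8. No α-tocopherol array had hybridization controls or 18S within the old control range.

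**Figure D3:**
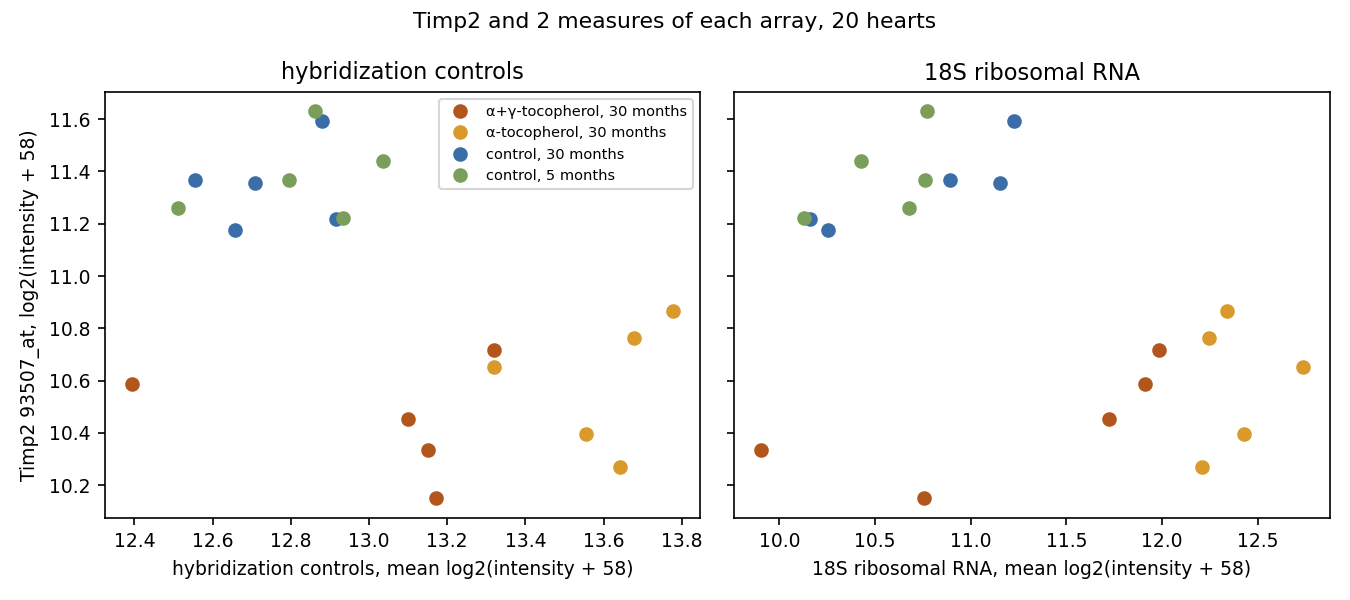
Level of Timp2 at 93507_at (log2) in 20 hearts against the mean level of the hybridization controls (left) and of 18S ribosomal RNA (right) on the same array. All α-tocopherol points lie to the right of the controls, with 18S at 12.21 or higher, while mixture points spread from 9.90 to 11.98.

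Marker lists of the cell types in the heart are given beside the Timp2 result with the share of all 5663 tested genes called, which was 4.22% lower and 2.63% higher with the mixture and 13.7% lower and 8.69% higher with α-tocopherol. Of 9 cardiomyocyte markers 0 were called with the mixture, and 5 were called higher with α-tocopherol, namely Tnnt2, Tnni3, Myl2, Myl3 and Mb. Of the markers not called with α-tocopherol, Nppa was lower, at -0.31 ± 0.13 (limma adjusted p = 0.10). Ryr2 was also lower, at -0.27 ± 0.16 (adjusted p = 0.23), while Myh6 and Actc1 were each higher by 0.12. Of 5 tested smooth muscle markers 1 was called lower with the mixture, Acta2, and 2 with α-tocopherol, Acta2 and Myh11. The summed intensity of the smooth muscle list was 9359.5 to 14577.9 in the mixture group and 9352.6 to 14373.4 with α-tocopherol, below the 16466.5 to 18751.8 of old controls, and young controls spanned 11390.7 to 19016.1. Of 11 tested fibroblast markers 3 were called lower and 1 higher with the mixture, and 5 lower and 1 higher with α-tocopherol. Fibroblast sums overlapped, at 61243.4 to 93012 with the mixture, 65725.4 to 96375.5 with α-tocopherol, 79642.2 to 90572.4 in old controls and 86048.5 to 97626.3 in young controls.

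Of 10 tested endothelial markers 3 were called lower with the mixture and 2 with α-tocopherol, beside the same 4.22% and 13.7% of all genes. Endothelial sums were 28881.1 to 34145.5 with the mixture, 27733.4 to 33022.8 with α-tocopherol, 32092 to 38379.9 in old controls and 26684.3 to 35032.9 in young controls. Of 8 tested macrophage markers 1 was called lower with the mixture and 4 with α-tocopherol. Macrophage sums were 18843.7 to 36026 with the mixture, 21185 to 34670.8 with α-tocopherol, 32883.2 to 38877.5 in old controls and 27514.6 to 41600.1 in young controls. In both lists the sums of the supplemented groups overlapped those of young controls.

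Of 5 tested liver markers 2 were called lower with the mixture and 3 with α-tocopherol. Liver sums were 1388 to 3107.7 with the mixture and 1312.3 to 2218.8 with α-tocopherol, below the 3768.4 to 21314.2 of old controls, and young controls had 2646.9 to 10900.4. Of 6 tested neutrophil markers 0 were called with the mixture and 1 was called higher with α-tocopherol. Neutrophil sums were 7478.5 to 14054 with the mixture, 6930.4 to 10442.5 with α-tocopherol, 5322.1 to 7850.7 in old controls and 6677.3 to 9251 in young controls. No marker in these lists was at 0 on any array. The part of these array measures and cell markers in the Timp2 result was not tested.

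The other probe sets of Timp2 were dim and gave no call, and they differed in direction. At 160116_at the intensity was 403, 202.1, 286.5, 163.1 and 180 in the mixture group. It was 336.6, 120.2, 70.4, 168.5 and 121.2 with α-tocopherol and 74.2, 112.3, 103.6, 125.9 and 61.5 in old controls. Young controls had 52.4, 48.8, 51.3, 117.4 and 95.5. Here every mixture heart was above every old and young control, the opposite of 93507_at, and the α-tocopherol group overlapped both. Of the dim probe sets, 2.29% had all 5 mixture hearts above all 5 old controls. The share above all young controls was not computed. In a fit with no filter the mixture change was 0.95 ± 0.29 with limma adjusted p = 0.073, and the α-tocopherol change 0.44 ± 0.29 with adjusted p = 0.33. At 161515_i_at the intensity was 16.8 to 36 in the mixture group and 19.7 to 263 in old controls, with a change of -0.63 ± 0.40 and adjusted p = 0.44. With α-tocopherol it was 23 to 253, with a change of -0.19 ± 0.40 and adjusted p = 0.79, so both changes had the sign of 93507_at. The call for Timp2 therefore rests on 1 of its 3 probe sets.

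**Figure D4:**
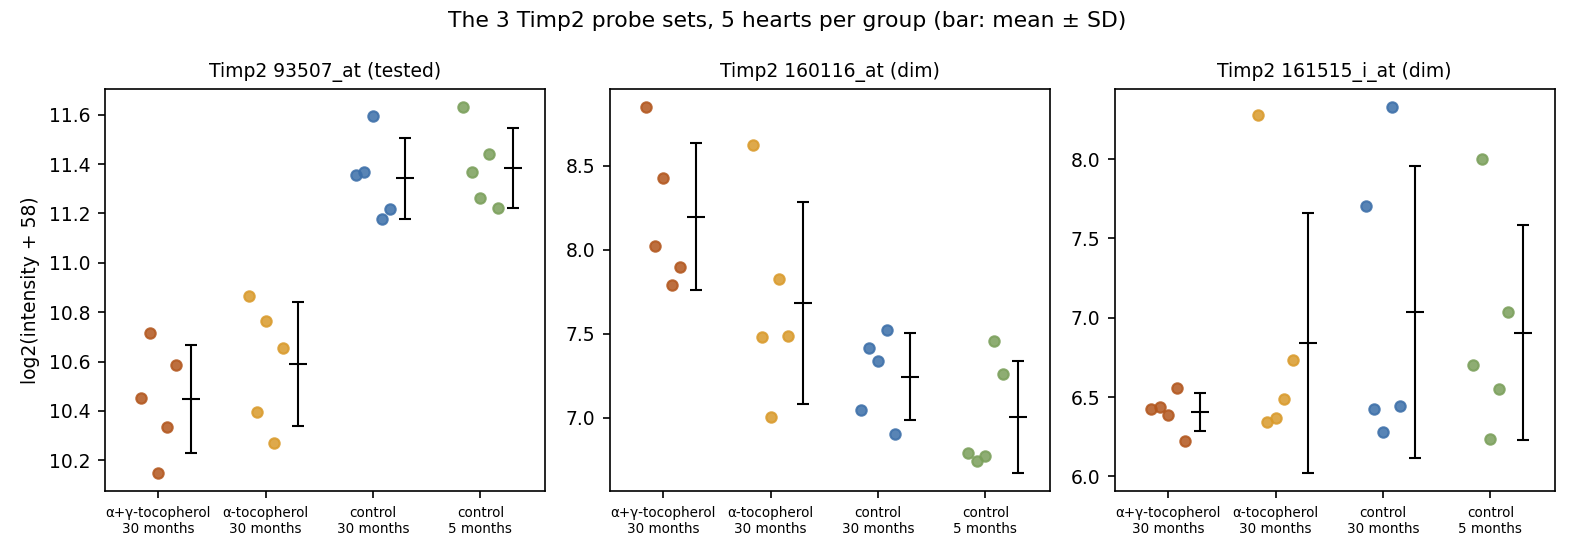
Level (log2) of each of the 3 Timp2 probe sets in 20 hearts, with the mean ± SD of each group of 5. At 93507_at the mixture group is low, at 160116_at it is the highest group, with intensities of 163.1 to 403, and at 161515_i_at the groups overlap.

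The tested genes whose levels followed Timp2 93507_at most closely over the 20 hearts were Cd99, Cyth3 and Ppif. Cd99 is a cell surface glycoprotein, Cyth3 an exchange factor for ARF GTPases, and Ppif the mitochondrial cyclophilin of the permeability transition pore. Pearson r with Timp2 over 20 arrays was 0.895 for Cd99, 0.877 for Cyth3 and 0.869 for Ppif. With the group means taken out, r was 0.55, 0.528 and 0.481 in the same order, so part of each value is the difference between groups, and all points share their arrays. Cd99 changed by -0.77 ± 0.13 with the mixture (limma adjusted p = 0.0016) and by -0.86 ± 0.13 with α-tocopherol (adjusted p = 0.00014). Ppif changed by -0.995 ± 0.13 with the mixture (adjusted p = 0.00026) and by -0.82 ± 0.13 with α-tocopherol (adjusted p = 0.00013). Cyth3 was called lower with α-tocopherol, by a change of -0.37 ± 0.11 (adjusted p = 0.019), and was at -0.33 ± 0.11 with the mixture (adjusted p = 0.070).

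Timp1, an inducible secreted inhibitor, varied more between hearts of the supplemented groups than between young hearts and had no call. At 101464_at its intensity was 1048.6, 2824, 2136, 1935.2 and 1036.9 in the mixture group. With α-tocopherol it was 2578.8, 3875.9, 3179.6, 2482.1 and 634.2. Old controls had 2278.7, 3304.5, 4135.1, 3209.3 and 1964.5, and young controls 4000.2, 4046.1, 3654.7, 3349.3 and 3405.2. The mixture hearts overlapped old controls and all lay below the young controls, while the other groups overlapped. How many of all probe sets are so separated from young controls was not computed. The SD of the level was 0.62 with the mixture, 0.99 with α-tocopherol, 0.43 in old controls and 0.12 in young controls (log2, n = 5 each), and the spreads were not tested against each other. The α-tocopherol group held animal 5 at 634.2, while its other hearts were at 2482.1 to 3875.9.

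The mixture change of Timp1 against old controls was -0.77 ± 0.34 (95% interval -1.48 to -0.05; limma adjusted p = 0.19). With α-tocopherol the change was -0.38 ± 0.34 (adjusted p = 0.46), and it was 0.05 without α-tocopherol animal 5, whose intensity of 634.2 was the lowest of all 20 hearts. In old against young controls the change was -0.35 ± 0.34 (adjusted p = 0.68). The mixture minus α-tocopherol was -0.39 ± 0.34 (95% interval -1.10 to 0.32; adjusted p = 0.61). In the order of means the mixture was at 10.75, α-tocopherol at 11.14, old controls at 11.52 and young controls at 11.87. For each pair of neighbours the 95% interval of the change included 0. The SE behind these intervals comes from a spread shared by all groups. Of the old controls 4 lay below every young control and 1 lay above them all. The dim probe set 162107_r_at had intensities of 12.4 to 298.3 with the mixture, 30.1 to 201 with α-tocopherol, 5.1 to 96.4 in old controls and 7.4 to 104.9 in young controls. These groups overlapped, and its mixture change of 0.69 ± 0.42 had the opposite sign (adjusted p = 0.41).

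Timp3, the inhibitor that stays bound to the matrix, did not pass the test in any comparison. Its intensity was 8310.5, 5991.2, 9053.4, 8016.6 and 6515.9 with the mixture and 6658.5, 5474.4, 4955.4, 5806.5 and 6913.6 with α-tocopherol. Old controls had 5517.1, 6792.8, 5684.2, 8189.5 and 5656.4, and young controls 4819.5, 7782.9, 6559.3, 10360.7 and 8637.5. Both the lowest and the highest value belonged to young hearts, and all groups overlapped. The mean level was 12.88 ± 0.25 with the mixture, 12.54 ± 0.20 with α-tocopherol, 12.63 ± 0.24 in old controls and 12.86 ± 0.42 in young controls (log2, SD, n = 5 each). The widest difference among the comparisons was the mixture minus α-tocopherol, at 0.34 ± 0.17 (95% interval -0.01 to 0.68; limma adjusted p = 0.33). Against old controls the change was 0.25 ± 0.17 with the mixture (adjusted p = 0.39) and -0.09 ± 0.17 with α-tocopherol (adjusted p = 0.74), and with age it was -0.23 ± 0.17 (adjusted p = 0.53).

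Among the enzymes, Mmp14, the membrane-type collagenase that activates the Mmp2 precursor, was not called. Its intensity was 2953.7, 2885.5, 2544.1, 2515.4 and 2876.9 with the mixture and 2986.7, 3324.3, 2495.6, 2630.2 and 2934.6 with α-tocopherol. Old controls had 2286.1, 2756.6, 4276.7, 2062.5 and 1911, and young controls 2672.7, 2680.9, 2001.1, 1444.4 and 2065.7. The supplemented hearts lay close together and within the range of the old controls, whose highest value was that of old control 3. The SD of the level was 0.11 with the mixture, 0.16 with α-tocopherol, 0.45 in old controls and 0.36 in young controls (log2, n = 5 each).

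The change of Mmp14 was 0.11 ± 0.18 with the mixture (limma adjusted p = 0.76), 0.17 ± 0.18 with α-tocopherol (adjusted p = 0.54) and 0.26 ± 0.18 with age (adjusted p = 0.51). The mixture minus α-tocopherol was -0.06 ± 0.18 (95% interval -0.43 to 0.32; adjusted p = 0.92). Without old control 3, the array with the high Gapdh ratio, the changes were 0.29 ± 0.15 with the mixture (adjusted p = 0.27), 0.35 ± 0.15 with α-tocopherol (adjusted p = 0.11) and 0.07 ± 0.15 with age (adjusted p = 0.87). With the 18S covariate both supplement changes were below 0, at -0.04 with the mixture and -0.30 with α-tocopherol.

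Mmp3, or stromelysin 1, which cuts proteoglycans and collagen IV and can activate other precursors, showed no difference that passed the test. Its intensity was 1074.9, 323.2, 463.6, 523.8 and 597.9 with the mixture and 544.6, 630.8, 577.9, 355.8 and 319.8 with α-tocopherol. Old controls had 695.2, 540.2, 609.8, 457.9 and 448.5, and young controls 510.2, 581.7, 399.9, 471.4 and 843.8. All groups overlapped, and mixture animal 1 had the highest value of all 20 hearts. The change was 0.03 ± 0.27 with the mixture (limma adjusted p = 0.97; 95% interval -0.53 to 0.58) and -0.19 ± 0.27 with α-tocopherol (adjusted p = 0.65). The mixture minus α-tocopherol was 0.21 ± 0.27 (adjusted p = 0.74), and with age the change was -0.0031 ± 0.27 (95% interval -0.55 to 0.55; adjusted p = 1.00).

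Mmp2 and Mmp9, the gelatinases, which degrade denatured collagen and collagen IV, were dim at every probe set, so differences in them could be judged only roughly. Mmp2 at 161509_at had intensities of 232.7, 233, 88.2, 89 and 114.6 with the mixture and 84.8, 368.6, 571.9, 377.8 and 553.7 with α-tocopherol. Old controls had 225.2, 312.8, 293.6, 127.5 and 179.2, and young controls 282, 268, 373.9, 122.1 and 77.9. With α-tocopherol 4 hearts were above every mixture heart and every old control, and animal 1 was below all of them. In the fit with no filter the mixture minus α-tocopherol was -1.01 ± 0.39 (limma adjusted p = 0.27), while the other Mmp2 probe set, 95663_at, gave 0.03 ± 0.44 (adjusted p = 0.98). Against old controls 161509_at gave -0.47 ± 0.39 with the mixture (adjusted p = 0.57) and 0.53 ± 0.39 with α-tocopherol (adjusted p = 0.39). At 95663_at the intensities were 59.1 to 337.7 with the mixture, 84.8 to 558 with α-tocopherol, 78.2 to 442.8 in old controls and 59.6 to 222.5 in young controls, and all groups overlapped.

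Mmp9 at 99957_at had intensities of 71.2 to 125.9 with the mixture, 94.2 to 123.4 with α-tocopherol, 52.5 to 106.3 in old controls and 51 to 111.6 in young controls. At 162369_f_at they were 26.8 to 104.9, 32.2 to 229, 16.2 to 114 and 23.8 to 123.3 in the same order of groups. All groups overlapped at both probe sets. The changes at 162369_f_at were 0.13 ± 0.34 with the mixture (limma adjusted p = 0.88) and 0.60 ± 0.34 with α-tocopherol (adjusted p = 0.25), and at 99957_at 0.13 ± 0.20 (adjusted p = 0.79) and 0.28 ± 0.20 (adjusted p = 0.37). With age no probe set of either gelatinase moved by more than 0.25 (log2), the value of Mmp2 95663_at with SE 0.44.

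**Figure D5:**
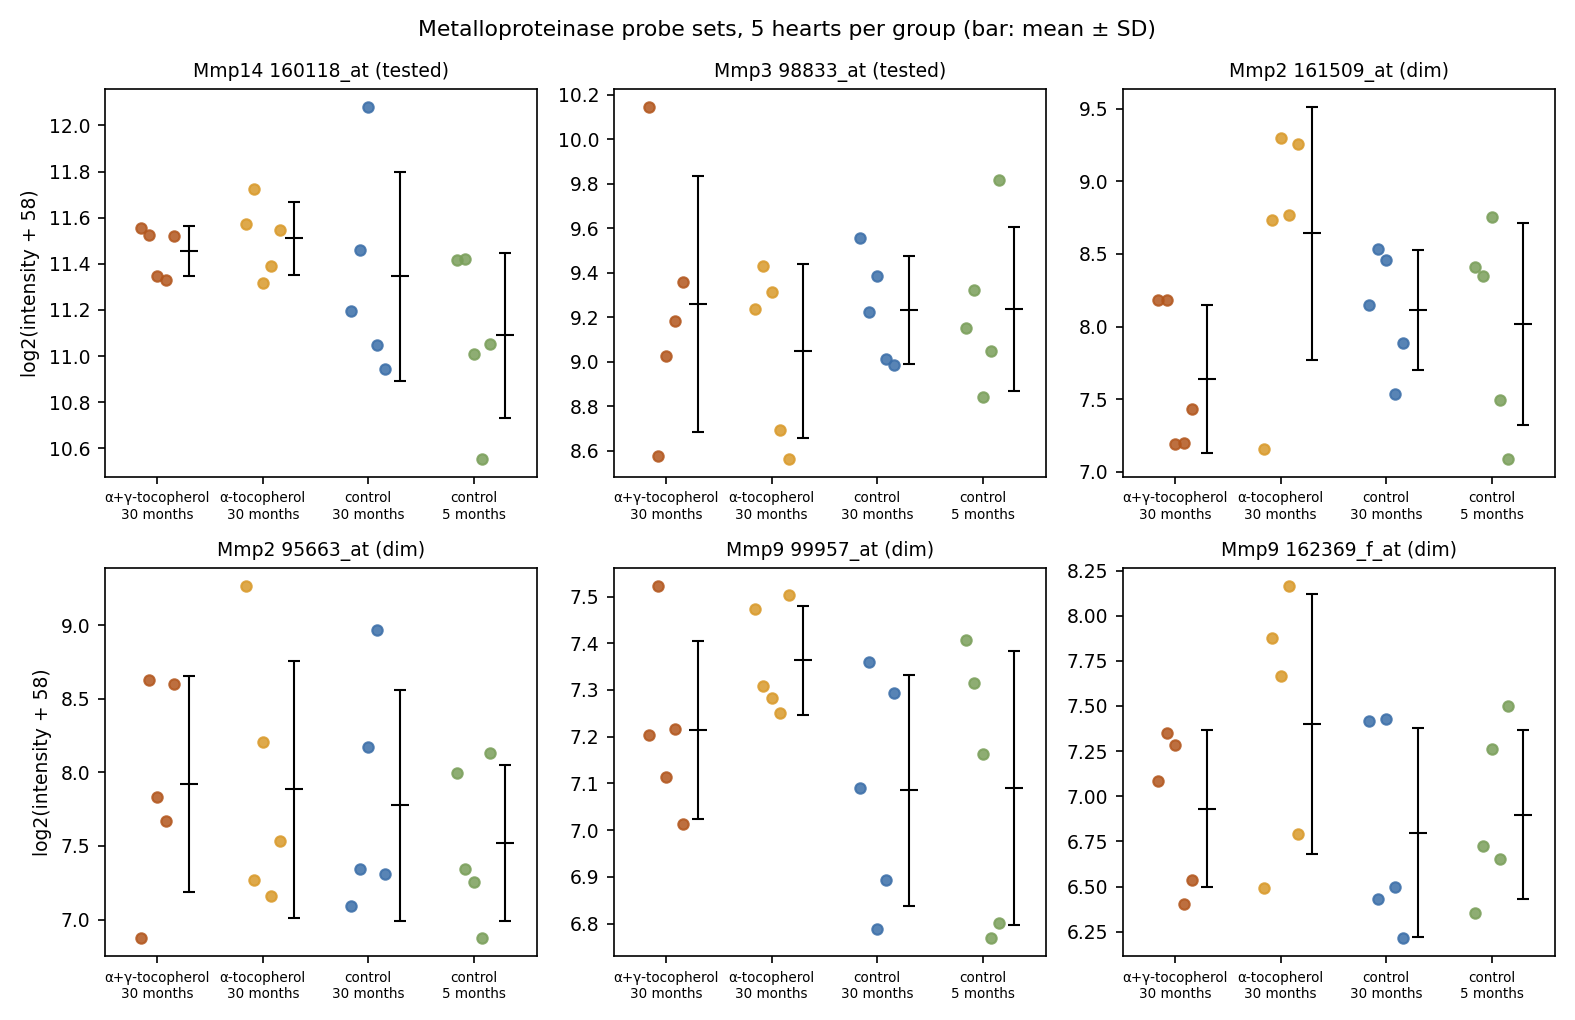
Level, as log2(intensity + 58), of each metalloproteinase probe set in 20 hearts, with the mean ± SD of each group of 5. Dim probe sets are named so in their titles. The groups overlap in every panel, and old control 3 is the highest point for Mmp14, at 4276.7 in intensity.

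Of the other metalloproteinases and Timp4, 9 of 19 listed genes were on the array and 2 passed the filter, Mmp11 and Mmp12. Timp4 was not among the 9, so it was not measured here. Neither was called in any comparison. Mmp12, the macrophage elastase, was at 0.58 ± 0.29 with the mixture (limma adjusted p = 0.23) and 0.48 ± 0.29 with α-tocopherol (adjusted p = 0.25). Mmp11, or stromelysin 3, was at -0.16 ± 0.27 (adjusted p = 0.77) and 0.23 ± 0.27 (adjusted p = 0.57). From a list of the related ADAM and ADAMTS families 5 genes were tested, Adam9, Adam10, Adam15, Adam19 and Adam23. No ADAMTS gene was among them, and 0 of the 5 were called in any comparison. Over all tested genes 6.85% were called with the mixture, 22.4% with α-tocopherol, 5.39% with age and 0.459% between the supplements.

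Regulators of the system include the plasminogen activators and their inhibitors, since plasmin can activate several metalloproteinase precursors. Of 17 tested regulators 3 were called higher and 0 lower with the mixture, and 2 higher and 1 lower with α-tocopherol, where 6.85% and 22.4% of the 5663 tested genes were called. With age 0 were called higher and 2 lower, against 5.39% of tested genes called, and 0 were called between the supplements, against 0.459%. The median changes of the list were 0.05, 0.15, -0.18 and -0.04 in that order, against -0.02, -0.04, 0.02 and 0.02 over all tested genes. Bsg, also called EMMPRIN, induces metalloproteinases in neighbouring cells. It was higher with the mixture by a change of 0.40 ± 0.12 (limma adjusted p = 0.045) and with α-tocopherol by 0.63 ± 0.12 (adjusted p = 0.00062), and lower in old than in young controls by -0.49 ± 0.12 (adjusted p = 0.015).

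Spock2, a testican proteoglycan, changed by 0.77 ± 0.19 with the mixture (limma adjusted p = 0.020) and by -0.88 ± 0.19 with age (adjusted p = 0.0073). Serpinf2, the plasmin inhibitor α2-antiplasmin, changed by 0.66 ± 0.15 with the mixture (adjusted p = 0.012) and by 0.94 ± 0.15 with α-tocopherol (adjusted p = 0.00018). Cav1, a caveolar protein, changed by -0.55 ± 0.13 with α-tocopherol (adjusted p = 0.0058), while a further tested probe set of the gene moved the other way. With the hybridization covariate 1 of the 3 mixture calls, 1 of the 3 α-tocopherol calls and both age calls were kept. With the 18S covariate 2 of 3, 0 of 3 and both were kept. Every change kept its sign with either covariate, and some lost calls were about as large with a wider error. With the hybridization covariate Spock2 was at 0.76 ± 0.22 with the mixture (adjusted p = 0.057) and Cav1 at -0.69 ± 0.23 with α-tocopherol (adjusted p = 0.12), while Bsg with α-tocopherol was smaller, at 0.27 ± 0.18 (adjusted p = 0.45). The comparisons of the supplements and of age all use the old controls.

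The substrates of the enzymes are the collagens, laminins and proteoglycans of the matrix. Of 26 tested substrates 8 were called lower and 1 higher with the mixture, and 6 lower and 1 higher with α-tocopherol. Over all tested genes 4.22% were called lower and 2.63% higher with the mixture, and 13.7% lower and 8.69% higher with α-tocopherol. With age 3 were called higher and 0 lower, against 3.00% and 2.38% of all genes. Between the supplements 0 were called, against 0.459% of all genes. The list's median change was -0.37 with the mixture, -0.26 with α-tocopherol, 0.11 with age and -0.14 for the mixture minus α-tocopherol, against -0.02, -0.04, 0.02 and 0.02 over all tested genes. The single gene called higher with the supplements was Col1a2, and a further tested probe set of that gene moved the other way. The same was true of Col18a1, which was among the 8 called lower with the mixture, at -0.68 ± 0.18.

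Col3a1, a fibrillar collagen, changed by -1.54 ± 0.26 with the mixture (limma adjusted p = 0.0015) and by -1.39 ± 0.26 with α-tocopherol (adjusted p = 0.00075). Col5a2, a chain of fibrillar collagen V, changed by -1.02 ± 0.23 (adjusted p = 0.010) and -1.17 ± 0.23 (adjusted p = 0.00094). Col15a1, a collagen of the basement membrane zone, changed by -1.44 ± 0.22 (adjusted p = 0.00074) and -1.01 ± 0.22 (adjusted p = 0.0027). With age Col15a1 was higher by 1.00 ± 0.22 (adjusted p = 0.0082), Col4a1 by 0.84 ± 0.15 (adjusted p = 0.0019) and Col4a2 by 0.35 ± 0.10 (adjusted p = 0.047), the last pair being the main chains of basement membrane collagen IV. With the hybridization covariate 5 of the 9 mixture calls, 0 of the 7 α-tocopherol calls and 3 of the 3 age calls were kept, and with the 18S covariate 8, 1 and 2. All 9, 7 and 3 changes kept their sign with either covariate. With the hybridization covariate the α-tocopherol change of Col3a1 was about as large with a wider error, at -1.28 ± 0.47 (adjusted p = 0.14). That of Col5a2 was -0.78 ± 0.39 (adjusted p = 0.30) and that of Col15a1 -0.78 ± 0.39 (adjusted p = 0.30).

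Of 13 tested cytokines and transcription factors upstream of metalloproteinase genes, 0 were called with the mixture, with age or between the supplements. Over all tested genes 6.85%, 5.39% and 0.459% were called in these comparisons, so 0 of 13 does not set the list apart. With α-tocopherol 1 was called higher and 1 lower, against 22.4% of all genes called. Jund, an AP-1 subunit, changed by 0.56 ± 0.14 (limma adjusted p = 0.0056), and Egr1, an immediate early zinc finger factor, by -0.88 ± 0.27 (adjusted p = 0.024). Neither call was kept with a covariate, though both kept their sign. Jund was at 0.37 ± 0.23 with the hybridization covariate (adjusted p = 0.43) and 0.48 ± 0.22 with the 18S covariate (adjusted p = 0.24), and Egr1 at -1.34 ± 0.46 (adjusted p = 0.12) and -0.63 ± 0.43 (adjusted p = 0.46).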

How the data were processed

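RNA from 20 mouse hearts was measured on 1 Affymetrix array per animal, as the probe set names show. Per the labels' protocols, polyadenylated RNA was purified from frozen tissue, and biotin-labelled complementary RNA was made and fragmented. The values are linear intensities deposited by the authors for 12488 probe sets, from 0.4 to 275792.6. What software made them the sources used here do not give, and no detection calls were used. From the values, the arrays share a trimmed mean near 1501 when 2% are cut at either end. The number of arrays limits the precision, with a median SE of a change of 0.179 (log2).

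Levels were taken as log2(intensity + 58), where 58 is near the 10th percentile of all values. Array medians differed by at most 0.117 (log2), and no further scaling was applied. After 66 controls and then the dimmest 40% of the remaining 12422 were removed, 7453 probe sets were tested. Of the 12422, 10833 had a single symbol in the platform annotation, 396 several and 1193 none. All 12 probe sets of the metalloproteinase and TIMP genes kept their symbol in RefSeq. The 4 group means of all 20 arrays entered a single linear model (R 4.3.3, limma 3.58.1; eBayes, trend and robust on), with two-sided p-values adjusted by Benjamini-Hochberg over the 7453 and calls below 0.05. The fit was tested on simulated data. A dim probe set has a value from the same fit with no filter.

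All 7 genes are named in every comparison, with the 3 genes most alike to a called one and, from each list, the called genes with the 3 largest changes. Further genes named in a count of 5 or fewer were chosen after their values were seen. The genes and lists were chosen with earlier results of these data known. Where a listed gene had several tested probe sets, the brightest stood for it. Promoters are from RefSeq (GRCm38.p6), where 5 of the 7 genes matched. Tables were made with Python 3.11.15 and figures with matplotlib 3.10.9. The 31 alternatives changed the pseudocount, filter, scaling, fit settings, covariates and samples.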

Additional observations from a re-analysis of the deposited data

Results flagged for a closer look

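Among the 48 groups of 5 hearts at the 12 probe sets, 4 held a heart whose gap to its nearest neighbour was more than 0.71 of the group's whole range, the critical value for 5 samples. Chance alone marks about 1 in 20 groups, and no explanation was tested. At Timp1 101464_at α-tocopherol animal 5 was the lowest of its group, with a gap of 0.748 of the range and an intensity of 634.2 against 2482.1 to 3875.9 in the other hearts of the group. At the dim Timp1 162107_r_at old control 5 was the lowest, with a gap of 0.755 and an intensity of 5.1. At the dim Timp2 161515_i_at α-tocopherol animal 1 was the highest, with a gap of 0.798 and an intensity of 253. At the dim Mmp2 161509_at the same animal was the lowest, with a gap of 0.737 and an intensity of 84.8. The Timp2 probe set that was called, 93507_at, had no such heart.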

How the results depend on the processing

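Over 31 alternatives, 20 of which leave out 1 heart each, 597 of 620 changes of the 5 tested probe sets kept their direction and side of the threshold. The Timp2 call with the mixture was kept in all 31, with changes of -1.004 to -0.82 and adjusted p up to 0.0060. The Timp2 call with α-tocopherol was lost only with the hybridization control covariate (-0.79, adjusted p = 0.081), which leaves 0 called of the 5, and its changes spanned -1.10 to -0.67. The same-numbered hearts were treated as not paired. Over 30 same-number pairs the correlation of deviations from the group means was -0.08 to 0.10, and 2 of 20 arrays correlated best with their own number. These values show no strong shared effect of the number, but they cannot decide whether hearts were matched by number. With the replicate number as a block the Timp2 changes were -0.89 with the mixture (adjusted p = 0.0015) and -0.75 with α-tocopherol (adjusted p = 0.00097). The 22 changes of sign were all in changes never called, and their cause was not tested. With the 18S covariate they were Timp2 mixture minus α-tocopherol at 0.10, Timp3 α-tocopherol at 0.25, Mmp3 mixture at -0.0015, and Mmp14 at -0.30 for α-tocopherol, -0.037 for the mixture and 0.26 for the mixture minus α-tocopherol. With the hybridization covariate they were Timp1 mixture minus α-tocopherol at 0.30 and Mmp3 age at 0.0012. With array weights Mmp3 mixture was at -0.043. Without old controls 1 and 4 Timp2 age was at 0.0085 and Mmp14 mixture at -0.040. With 1 heart left out, the changes spanned -0.58 to 0.050 for Timp1 α-tocopherol, -0.10 to 0.019 for Timp2 age, -0.14 to 0.0061 for Timp3 α-tocopherol, -0.10 to 0.14 for Mmp3 age, -0.20 to 0.20 for Mmp3 mixture and -0.010 to 0.38 for Mmp3 mixture minus α-tocopherol. Counts of called probe sets over the whole array moved more. They were 162 to 858 for the mixture against 479, 142 to 1804 for α-tocopherol against 1619, 0 to 79 for the mixture minus α-tocopherol against 42, and 150 to 731 for age against 368. Of these, the α-tocopherol count was 142 with the 18S and 144 with the hybridization covariate, where the mixture count was 242. Without old controls 1 and 4, whose label lacks the F1 mark, the counts were 162 for the mixture, 981 for α-tocopherol and 150 for age. The mixture count was 263, 299 and 300 without mixture animal 1, mixture animal 2 and old control 5. Low signal limits what can be said of Mmp2 and Mmp9.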
